A study of Mus musculus with 144 samples.

Results

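Wild-type mouse liver was compared between the middle of the light phase and the middle of the dark phase, using total RNA at zeitgeber time (ZT, hours after lights on) 6 and 18. The members were the 6 libraries titled for wild-type total RNA at ZT06 and the 6 titled for ZT18, which made 12 of the 144 libraries of the study. Both groups came from male C57BL/6J mice kept on alternating 12 h light and 12 h dark with free access to water and food, so only the time of sacrifice set them apart by label. Age was not given in the sources used here. Libraries were made with a 3′ mRNA kit (QuantSeq, Lexogen), which reads the 3′ end of a transcript, so that a count measures both how much of a gene's RNA is present and which polyadenylation site ended it. Where the change over the day is set against another series, the groups were total RNA of mice labelled Bmal1-/-, and nuclear or polysomal RNA of wild-type mice, each with 6 libraries at ZT06 and 6 at ZT18. The labels do not say whether libraries of a group came from separate animals, so p-values measure only the spread between these libraries, and in bulk RNA fewer cells of a type and less RNA per cell cannot be told apart.

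As background, the liver clock is a loop in which BMAL1 (gene Arntl) and CLOCK bind E-box sequences and switch on the Per, Cry, Nr1d1, Nr1d2 and Dbp genes. PER and CRY proteins then block BMAL1 and CLOCK, while REV-ERB alpha and beta (Nr1d1, Nr1d2) repress, and ROR receptors activate, genes such as Arntl and Cry1. Mice feed mostly in the dark, and their body temperature, corticosterone and nutrient supply also change between light and dark, so liver genes that answer to food, heat and hormones can differ between these times beside the clock's own targets.

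The 12 libraries held similar numbers of gene counts, from 7077376 to 7597050 at ZT06 and from 6580945 to 9831142 at ZT18. No pair of libraries agreed within sampling noise. Replicate numbers 1 to 3 and 4 to 6 formed separate sets at ZT06, where 141 of 11799 genes (1.2%) differed between the sets by edgeR's quasi-likelihood test with Benjamini-Hochberg adjustment. At ZT18 2 genes did (0.017%, Rnu11 and Rps13-ps1), and ZT18 replicate 2 stood with numbers 4 to 6 on the first principal component (30.9, against 23.2 to 35.4 for those, -21.5 for replicate 1 and -3.94 for replicate 3). Without that library the sets differed in 504 genes at ZT06 and in 189 at ZT18, and the main counts and list counts below are also given without it where they move. Hepatocyte markers summed to 86272 to 97645 CPM (gene counts scaled to a library total of 1e6) at ZT06 and 75410 to 101108 at ZT18. Markers of Kupffer cells summed to 309 to 692 and 210 to 547 CPM, of sinusoidal endothelium to 281 to 385 and 255 to 309, and of red blood cells to 1695 to 5993 and 546 to 4007. All 10 Kupffer markers tested had point estimates above 0 at ZT06 and 0 passed the test (6 at unadjusted p under 0.05, 1 by DESeq2). Leukocyte markers, which summed to 59.3 to 193 CPM at ZT06 and 33.0 to 128 CPM at ZT18, were above 0 in 4 of 4 (median log2 change 1.34), and stellate cell and fibroblast markers, 305 to 379 and 243 to 339 CPM, in 8 of 9, with 0 past the test in both lists (1 and 3 at unadjusted p under 0.05, 1 each by DESeq2). Among all 11799 genes tested, 665 (5.64%) passed, 2431 were at unadjusted p under 0.05, and 1004 (8.51%) passed by DESeq2. In lists this short, 0 past the test is near that share. Adipocyte markers summed to 8.49 to 51.7 CPM at ZT06 and 6.7 to 138 CPM at ZT18. Single markers passed for hepatocytes (Fgb, log2 change 0.47, ZT06 minus ZT18) and bile duct cells (Tm4sf4 0.67, Sox9 -0.68), and the part of cell makeup in the results was not tested. Of the 12 markers of exocrine pancreas, 8 were at 0 in all 12 libraries.

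A minority of liver genes differed between the middle of the light and the middle of the dark phase. Of 11799 genes that averaged 10 counts per library or more, 665 (5.64%) passed edgeR's quasi-likelihood test at an adjusted p under 0.05, 299 (2.53%) higher and 366 (3.1%) lower at ZT06. The median fold change was 1.70 among the higher and 1.72 among the lower genes, and 86 and 119 genes changed at least 2-fold (68 and 98 without ZT18 replicate 2). In plain CPM all 6 ZT06 libraries lay above all 6 ZT18 libraries for 314 genes (2.66%) and below them for 167 (1.42%). Plain CPM leaves out the TMM factors by which the test scaled the libraries. Those factors ran from 0.977 to 1.088 at ZT06 and from 0.949 to 1.004 at ZT18. Plain CPM thus mostly sat higher at ZT06 than on the scale of the test. The 314 and 167 are therefore not set against the 299 and 366. Of the 665 genes, 355 (53.4%) had no overlap between the groups in plain CPM. Without ZT18 replicate 2 the test passed 411 of 11842 genes (3.47%), of which 396 were among the 665. The 2 replicate sets fitted apart gave 177 genes (1.47%) in numbers 1 to 3 and 238 (2.06%) in numbers 4 to 6, with 68 genes in both lists (38.4% of the former and 28.6% of the latter). Of the 665 genes, 652 could be tested in both sets, and their point estimates had the same direction in both for all 652; these fits hold the libraries that chose the genes.

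Placed in the whole day of wild-type total RNA, the genes higher at ZT06 had their highest mean of the 6 times at ZT6 in 173 of 299 cases (57.9%) and at ZT10 in 73 (24.4%). Those lower at ZT06 were highest at ZT18 in 181 of 366 cases (49.5%) and at ZT14 in 115 (31.4%). Among all genes tested, 16.6% were highest at ZT6, 19.98% at ZT10, 19.83% at ZT14 and 8.98% at ZT18. These shares use the same ZT06 and ZT18 libraries that chose the genes, so they describe the genes and test nothing.

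The core clock changed in both directions. Of 18 clock genes tested, 3 were higher and 6 lower at ZT06 by edgeR's quasi-likelihood test (against 5.64% of all genes), and 3 and 6 were called without ZT18 replicate 2. The median log2 change (ZT06 minus ZT18) of the 18 was -0.18, against -0.02 over all genes tested. The 3 higher genes were the repressors Nr1d1 and Nr1d2 and the D-box activator Dbp, and the lower genes described here are Arntl, Cry1, Per1, Per2 and Nfil3.

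Nr1d1, which encodes REV-ERB alpha (chr11:98767932-98775377, minus strand, in RefSeq GRCm38.p6), had the largest rise of all genes that could be named by rule. Its level ran from 30.1 to 49.8 CPM at ZT06 (median 43.5) and from 0.278 to 1.52 CPM at ZT18 (median 0.628). The groups were far apart, with the lowest light-phase library many times above the highest dark-phase library. The log2 change was 5.77 (SE 0.26), a 54.6-fold difference, with an adjusted p of 1.00e-09 in edgeR's quasi-likelihood test.

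Nr1d2, for REV-ERB beta, ran from 55.1 to 103 CPM at ZT06 (median 76.9) and from 15.6 to 31.0 CPM at ZT18 (median 22), with a log2 change of 1.68 (SE 0.20, adjusted p 0.000206). Dbp, a transcription factor that binds D-boxes, ran from 13.3 to 61.3 CPM (median 39.0) against 2.24 to 5.77 CPM (median 4.06), with a log2 change of 3.12 (SE 0.41, adjusted p 0.000932). In neither gene did the groups overlap. The wide range of Dbp at ZT06 followed the replicate sets, with a mean of 58.1 CPM in numbers 1 to 3 and 18.1 CPM in numbers 4 to 6 (adjusted p 0.00260 between sets).

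Arntl, the BMAL1 gene, was the reverse, from 0.535 to 4.40 CPM at ZT06 (median 1.42) and from 7.45 to 11.7 CPM at ZT18 (median 10.1), a log2 change of -2.53 (SE 0.37, adjusted p 0.000932). Cry1, a repressor of BMAL1 and CLOCK, ran from 3.03 to 7.65 CPM (median 6.17) against 23.9 to 55.6 CPM (median 28.5), a log2 change of -2.63 (SE 0.28, adjusted p 0.000108). Every ZT18 library was above every ZT06 library for both genes.

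Per1 and Per2, of the Period repressors, were lower in the light phase. Per1 ran from 0.959 to 3.61 CPM at ZT06 (median 1.69) and from 4.49 to 16.1 CPM at ZT18 (median 7.57), a log2 change of -2.15 (SE 0.38, adjusted p 0.00402). Per2 ran from 3.02 to 19.2 CPM (median 11.0) against 31.0 to 60.9 CPM (median 39.6), a log2 change of -1.97 (SE 0.43, adjusted p 0.0217, and 0.0544 with no filter on low counts). Neither gene's groups overlapped. Per2 was the one clock gene whose change over the 2 times also differed between replicate sets: its log2 change was -1.19 in numbers 1 to 3 and -3.45 in numbers 4 to 6 (difference 2.26, adjusted p 0.0457 by edgeR's quasi-likelihood test). Its ZT06 level averaged 18.4 CPM in the former set and 4.14 CPM in the latter. Nfil3, a repressor that competes at D-boxes, ran from 7.90 to 12.3 CPM against 12.0 to 25.6 CPM, so its groups overlapped, with a log2 change of -0.93 (SE 0.18, adjusted p 0.00551).

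For Clock, Per3, Cry2, Rora, Tef, Hlf, Bhlhe40, Bhlhe41 and Ciart no difference passed the test. Bhlhe41, a repressor of E-box genes, came nearest in size among these, with a log2 change of 2.60 (SE 0.74, adjusted p 0.0603 by edgeR). That estimate rested on ZT06 replicates 1 to 3, with 89, 61 and 92 counts. ZT06 replicates 4 to 6 had 11, 12 and 3, and ZT18 libraries 2 to 17. Per3 had 114, 97 and 137 counts in the former set at ZT06, 22, 47 and 56 in the latter, and 36 to 94 at ZT18. Of the 18 clock genes tested, 7 differed between the replicate sets at ZT06 (1.2% of all genes did). A miss here thus does not show equal levels. Npas2, a relative of Clock, had too few counts to be tested. The plot of clock genes by library shows 8 that passed.

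**Figure D1:**
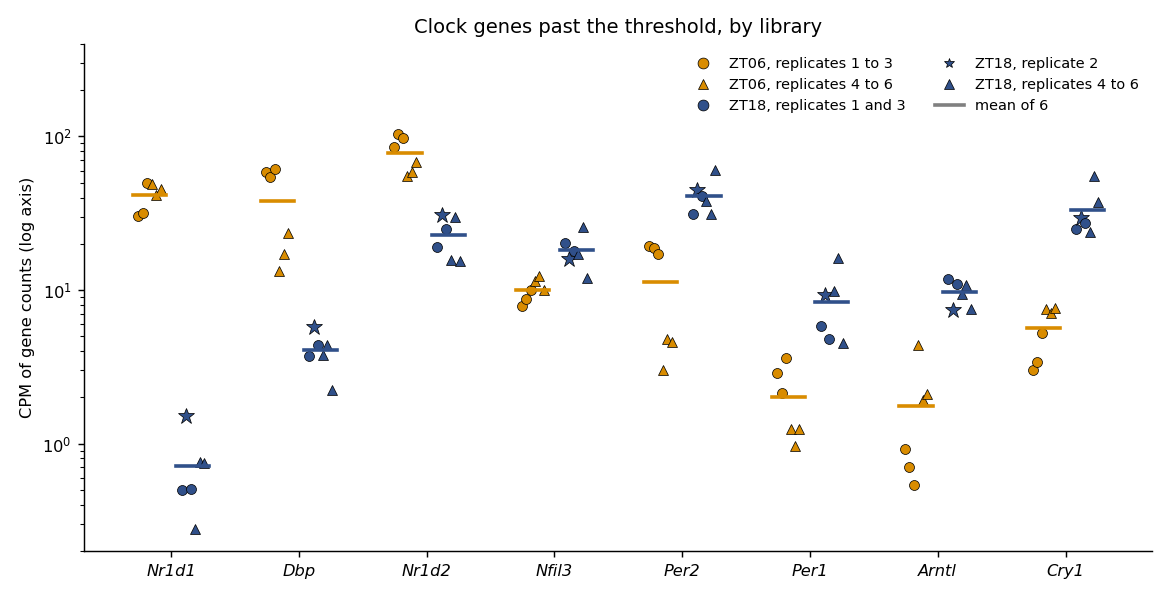
CPM on a log axis of 8 clock genes that passed the test, with 1 point for each library at ZT06 (orange) and ZT18 (blue) and a bar for the mean of 6; circles are replicate numbers 1 to 3, triangles 4 to 6, and the star is ZT18 replicate 2. The groups overlap in Nfil3 and not in the other 7, and the ZT06 points of Dbp and Per2 split by replicate set.

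The promoters of the 4 clock genes with the largest absolute log2 change are printed because most of these genes carry the light-dark difference at its greatest size. The sequences are from RefSeq (GRCm38.p6), 250 bases before to 50 after 1 annotated start per gene, 5′ to 3′ on the gene's strand. For Dbp that start lies inside the gene's span (chr7:45705100-45710203) and not at its end. Capitals mark an E-box (CACGTG, searched on both strands). The windows are chr11:98775328-98775627 (minus strand) for Nr1d1, chr7:45704997-45705296 (plus) for Dbp, chr10:85185005-85185304 (minus) for Cry1 and chr6:145865371-145865670 (minus) for Bhlhe41.
Nr1d1: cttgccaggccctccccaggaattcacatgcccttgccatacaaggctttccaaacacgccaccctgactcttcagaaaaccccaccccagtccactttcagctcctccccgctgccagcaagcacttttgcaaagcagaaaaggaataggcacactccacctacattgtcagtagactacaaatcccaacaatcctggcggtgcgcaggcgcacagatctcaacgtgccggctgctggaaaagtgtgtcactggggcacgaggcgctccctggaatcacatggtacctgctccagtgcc
Dbp: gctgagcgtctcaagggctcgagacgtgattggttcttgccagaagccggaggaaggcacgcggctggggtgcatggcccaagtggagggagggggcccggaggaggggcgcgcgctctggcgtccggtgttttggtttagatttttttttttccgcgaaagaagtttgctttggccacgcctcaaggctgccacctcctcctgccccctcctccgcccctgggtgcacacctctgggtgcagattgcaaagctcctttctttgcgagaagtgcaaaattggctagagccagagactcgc
Cry1: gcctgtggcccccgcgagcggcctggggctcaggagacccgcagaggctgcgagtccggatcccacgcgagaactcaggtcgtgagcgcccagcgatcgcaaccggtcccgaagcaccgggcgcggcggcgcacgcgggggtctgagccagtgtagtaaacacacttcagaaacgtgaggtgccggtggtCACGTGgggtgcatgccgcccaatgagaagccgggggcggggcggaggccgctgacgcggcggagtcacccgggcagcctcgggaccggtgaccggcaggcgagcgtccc
Bhlhe41: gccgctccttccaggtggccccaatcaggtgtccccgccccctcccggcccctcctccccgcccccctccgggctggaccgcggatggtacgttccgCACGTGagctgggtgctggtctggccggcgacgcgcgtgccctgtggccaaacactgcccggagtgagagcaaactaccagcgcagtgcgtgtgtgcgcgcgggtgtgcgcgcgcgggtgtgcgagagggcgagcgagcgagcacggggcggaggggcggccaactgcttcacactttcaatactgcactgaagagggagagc
Cry1 held an E-box that began 60 bases before the start and Bhlhe41 one 153 bases before it. The letters CACGTG were not in the windows of Nr1d1 or Dbp. E-boxes of other letters or outside these windows were not searched for, so that miss does not show that these genes lack one. Of the 16 clock genes with a promoter in the table, 5 (31.2%) held an E-box. The share was 10.6% of 226 genes higher at ZT06, 16.1% of 267 genes lower at ZT06 and 10.5% of 8409 genes tested. A D-box (TTATGTAA or TTACGTAA) was in 1 of the 16 clock promoters. An exact match to the letter pattern used for a ROR element was in 0 of 16. Sites that depart from that pattern, in Arntl or any other gene, were not searched for. The 0 thus does not show that these promoters lack a ROR element. A match is a description of letters and not a bound site.

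Clock output genes were lower in the light phase where they passed the test. Of 22 tested, 7 fell and 0 rose (edgeR's quasi-likelihood test; 3.1% and 2.53% of all genes), with a median log2 change of -0.98, and 11 fell by DESeq2. Noct, for nocturnin, ran from 0.418 to 5.13 CPM at ZT06 (median 1.08) and from 5.99 to 16.3 CPM at ZT18 (median 12.7), a log2 change of -2.63 (SE 0.48, adjusted p 0.00709). Tfrc, the transferrin receptor, ran from 5.15 to 15.9 CPM (median 9.91) against 21.9 to 34.6 CPM (median 28.1), a log2 change of -1.53 (SE 0.22, adjusted p 0.000574). Neither gene's groups overlapped. Por, the reductase that passes electrons to cytochrome P450 enzymes, had a log2 change of -1.27 (SE 0.23, adjusted p 0.00591), and Tspan4, a tetraspanin, had one of -0.99 (SE 0.13, adjusted p 0.000213).

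Outside these lists, the largest rises at ZT06 came from genes of varied function. Clec2h, a C-type lectin, ran from 9.61 to 31.5 CPM at ZT06 (median 22.7) and from 1.26 to 5.01 CPM at ZT18 (median 2.67), a log2 change of 2.85 (SE 0.40, adjusted p 0.00113 by edgeR). Arrdc3, an arrestin-domain protein, ran from 53.6 to 95.4 CPM (median 78.7) against 4.59 to 32.1 CPM (median 11.9), a log2 change of 2.28 (SE 0.35, adjusted p 0.00292). Calcoco1, a receptor of selective autophagy, ran from 57.8 to 158 CPM (median 91.2) against 9.46 to 37.5 CPM (median 22.3), a log2 change of 1.98 (SE 0.36, adjusted p 0.00866). All 3 had no overlap between groups, as the naming rule required. The others were Fbxo21, an F-box protein (log2 change 1.57), Syt1, a synaptotagmin (1.55), and Gpcpd1, a glycerophosphocholine phosphodiesterase (1.43), beside the clock genes and Junb.

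The largest falls at ZT06 also came from genes of varied function. Tsku, for the secreted proteoglycan tsukushi, ran from 1.39 to 6.55 CPM at ZT06 (median 3.59) and from 17.5 to 42.1 CPM at ZT18 (median 31.1), a log2 change of -3.10 (SE 0.37, adjusted p 0.000398 by edgeR). Eif4ebp3, an inhibitor of cap-dependent translation, ran from 7.62 to 23.2 CPM (median 10.5) against 28.3 to 170 CPM (median 81.8), a log2 change of -2.81 (SE 0.50, adjusted p 0.00838). Ddit4, an inhibitor of the growth kinase mTORC1, ran from 6.44 to 8.56 CPM (median 7.23) against 21.4 to 45.9 CPM (median 27.6), a log2 change of -2.18 (SE 0.20, adjusted p 6.16e-06). The spread of Eif4ebp3 was widest in the dark phase, while Ddit4 was tight in the light phase. Fmo2, a flavin monooxygenase, had a log2 change of -2.18 (SE 0.49, adjusted p 0.0231), and 1 ZT18 library, replicate 5, stood above the others at 46.1 CPM against a median of 11.3. The call of Fmo2 was lost without any one of ZT06 replicates 3 to 6 (adjusted p 0.0529 to 0.0557 by edgeR) and with no filter on low counts (0.0616).

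Heat shock genes were lower in the light phase almost as a block. HSF1 is the factor that switches these chaperone genes on by binding arrays of heat shock units. Of 20 genes tested, 15 fell and 0 rose (75.0% lower, against 3.1% of all genes; edgeR's quasi-likelihood test), all 20 had point estimates below 0, and the median log2 change was -0.95. Without ZT18 replicate 2, 14 fell. Numbers 1 to 3 alone gave 5 of 20 and numbers 4 to 6 alone 13. None of the 20 differed between the replicate sets at either time.

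Hsph1, the HSP110 chaperone (chr5:149616843-149636498, minus strand), ran from 12.0 to 20.3 CPM at ZT06 (median 16.2) and from 37.1 to 81.1 CPM at ZT18 (median 71.2), a log2 change of -2.12 (SE 0.19, adjusted p 8.59e-06). Hsp90aa1, the inducible HSP90, which was picked after its values were seen, ran from 185 to 367 CPM (median 248) against 413 to 1084 CPM (median 917), a log2 change of -1.71 (SE 0.24, adjusted p 0.000742). Hspa8, the constitutive HSP70, ran from 50.3 to 70.2 CPM (median 62.5) against 95.9 to 164 CPM (median 118), a log2 change of -1.12 (SE 0.15, adjusted p 0.000398). In each of these, and in Chordc1 (an HSP90 partner, log2 change -1.10, SE 0.13, adjusted p 0.000108), no ZT06 library reached a ZT18 library. The 5 that did not pass were Hspa1b, Dnajb4, Hspd1, Hspa4 and Hsf1 itself, with log2 changes from -1.59 to -0.14. Hspa1b has a near-identical copy, so its counts are uncertain.

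**Figure D2:**
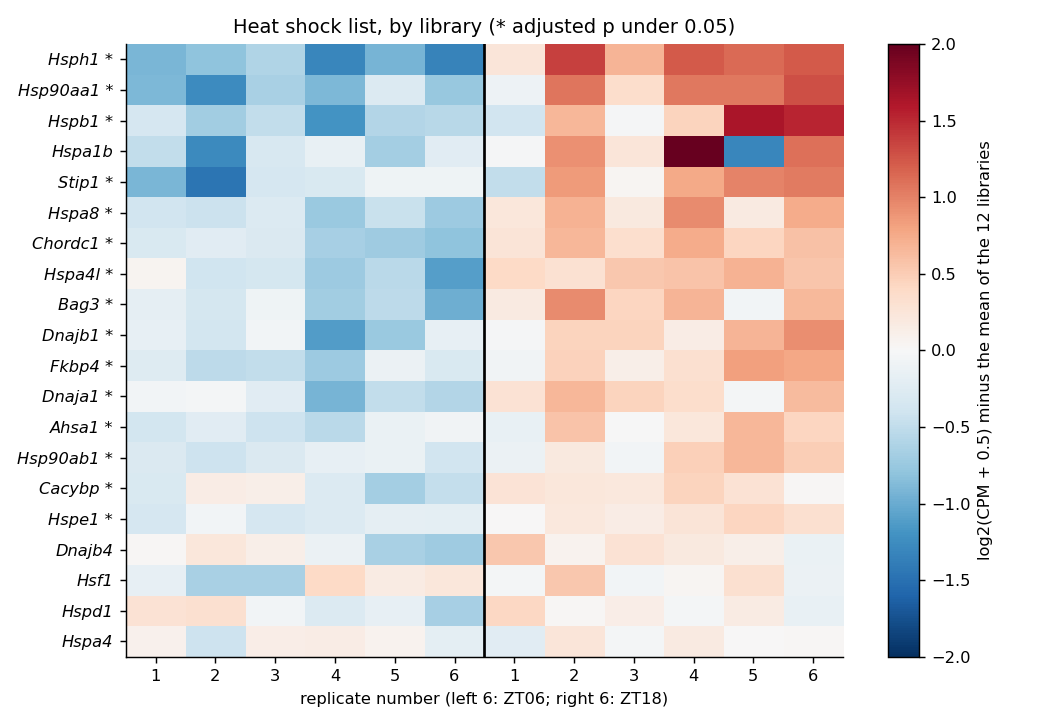
Heat map of the 20 heat shock genes (rows, ordered by log2 change) in the 12 libraries (columns), coloured by log2(CPM + 0.5) minus the mean of the 12 libraries, with a star for an adjusted p under 0.05. The 6 ZT06 columns are low and the ZT18 columns high in most rows, with the contrast fading in the bottom rows (Hspa4 at -0.14).

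Windows around the heat shock units of the called heat shock genes are printed to show that motif in its setting, and were chosen after the values were seen. The motif was GAANNTTC, which is 2 adjoining units, on both strands, in capitals below; sequences are from RefSeq (GRCm38.p6), 5′ to 3′ on the gene's strand, with up to 16 bases on each side inside the promoter window.
Hsph1: aatgctgcagattctgGAAAGTTCt
Hspb1: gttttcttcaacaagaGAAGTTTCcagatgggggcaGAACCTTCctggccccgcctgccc
Chordc1: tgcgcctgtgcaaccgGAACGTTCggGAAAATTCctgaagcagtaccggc
Bag3: tctctggatgggaccaGAAGTTTC
Fkbp4: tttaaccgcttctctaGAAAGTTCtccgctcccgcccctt
Dnaja1: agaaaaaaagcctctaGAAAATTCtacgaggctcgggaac
Hspe1: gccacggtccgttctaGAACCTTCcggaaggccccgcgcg
The windows lie at chr5:149636287-149636311 (minus) for Hsph1, chr5:135887786-135887845 (plus) for Hspb1, chr9:18292247-18292296 (plus) for Chordc1 and chr7:128523609-128523632 (plus) for Bag3. Those of the other three are chr6:128438784-128438823 (minus) for Fkbp4, chr4:40722328-40722367 (plus) for Dnaja1 and chr1:55088048-55088087 (plus) for Hspe1. Hspb1 and Chordc1 held a pair of matches each. Those of Hsph1 and Bag3 began 41 and 42 bases from the start used, inside the transcribed part. For Hsph1 that start lies inside the gene's span given above and not at its end. The motif was in 9 of 17 promoters of the heat shock list (52.9%), against 5.62% of promoters of genes tested and 7.95% of all 27025 promoters. It was in 7 of the 12 called heat shock genes that have a promoter in the table and in 1 of 4 that were tested and not called. HSF1 binding was not measured.

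Cirbp, a cold-inducible RNA-binding protein, went the other way. It ran from 9.45 to 19.5 CPM at ZT06 (median 15.8) and from 3.65 to 9.15 CPM at ZT18 (median 6.74), with no overlap and a log2 change of 1.18 (SE 0.22, adjusted p 0.00504 by edgeR). Rbm3, its close relative and the other cold-inducible gene on the list, had a log2 change of -0.07 (SE 0.22, adjusted p 0.893). Rbm3 ran from 6.71 to 16.5 CPM and from 7.79 to 19.2 CPM, overlapping in most of its range.

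Chaperones of the endoplasmic reticulum were partly lower at ZT06. Of 27 genes of protein folding and stress in that compartment, 7 fell and 2 rose (edgeR; 3.1% and 2.53% of all genes), with a median log2 change of -0.31, and 4 and 1 without ZT18 replicate 2. Hspa5 (BiP), the main chaperone there, ran from 695 to 1101 CPM (median 807) at ZT06 and from 997 to 2127 CPM (median 1654) at ZT18, so 1 end of each range overlapped, with a log2 change of -1.03 (SE 0.19, adjusted p 0.00549). The 2 genes that rose were Trib3, a pseudokinase induced by the transcription factors ATF4 and CHOP (5.13 to 12.2 CPM against 0.835 to 4.40 CPM, log2 change 1.87, SE 0.30, adjusted p 0.0017), and Chac1, an enzyme that breaks down glutathione (log2 change 1.58, SE 0.43, adjusted p 0.0379). Ribosome biogenesis factors showed 5 lower and 0 higher of 30 (3.1% and 2.53% of all genes), with a median of -0.31, and 3 lower without ZT18 replicate 2. Nop16, a nucleolar protein, had the smallest adjusted p among these (log2 change -0.86, SE 0.16, adjusted p 0.00565), and the others were Nolc1 (-1.29), Rrp12 (-1.34), Nop2 (-0.82) and Wdr12 (-0.53).

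Cyp7a1, the rate-limiting enzyme of bile acid synthesis, ran from 20.8 to 50.8 CPM at ZT06 (median 42.8) and from 81.5 to 201 CPM at ZT18 (median 137), a log2 change of -1.95 (SE 0.25, adjusted p 0.000561 by edgeR). Hsd3b7, a later enzyme of the same pathway, ran the other way, from 242 to 415 CPM (median 318) against 152 to 193 CPM (median 175), a log2 change of 0.80 (SE 0.15, adjusted p 0.00592). Neither overlapped. Of 23 genes of bile acid synthesis and transport, 2 rose and 3 fell (2.53% and 3.1% of all genes), with a median of -0.05. The others were Abcb11, the bile salt export pump (log2 change 0.46), the steroid reductase Akr1d1 (-0.83) and Baat, which conjugates bile acids (-0.44). Without ZT18 replicate 2 the count was 1 higher and 3 lower.

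Genes of glucose and glycogen handling fell where they passed, 5 of 24 with 0 higher (edgeR; 3.1% and 2.53% of all genes; 4 without ZT18 replicate 2). Ppp1r3b, which brings protein phosphatase 1 to glycogen (chr8:35375694-35388139), ran from 51.2 to 107 CPM at ZT06 (median 77.6) and from 305 to 456 CPM at ZT18 (median 320), a log2 change of -2.28 (SE 0.15, adjusted p 1.60e-07). Slc37a4, the glucose-6-phosphate transporter of the endoplasmic reticulum, had a log2 change of -0.95 (SE 0.18, adjusted p 0.00549). Neither overlapped. Other members that fell were Ppp1r3c, a relative of Ppp1r3b (-1.13), and Pfkfb1, a regulator of glycolysis (-0.93). The median of the list was -0.10, against -0.02 over all genes.

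In cholesterol synthesis and uptake 1 of 25 genes fell and 0 rose by edgeR, with a median log2 change of -0.10, which is near the share of all genes that fell (3.1%). In de novo lipogenesis 0 of 21 passed (1 at unadjusted p under 0.05, 0 by DESeq2), against 5.64% of all genes. Thrsp, a regulator of lipogenesis, ran from 31.9 to 655 CPM at ZT06 and from 164 to 1963 CPM at ZT18. Its log2 change of -1.68 had an SE of 0.85 (adjusted p 0.297). Thrsp counts at ZT06 split by replicate set, with 4595, 4104 and 4899 in numbers 1 to 3 and 292, 233 and 731 in numbers 4 to 6. At ZT18 they were 12819, 4371 and 19303, and 4071, 1302 and 6951. Of the 21 genes, 0 differed between the sets past the test. Numbers 1 to 3 alone gave 0 calls of 21, and numbers 4 to 6 alone 1 higher of 19. A miss in this list thus does not show equal levels. Among 27 genes of fasting and PPAR alpha 2 fell and 0 rose (3.1% and 2.53% of all genes), and these were the acyl-CoA thioesterases Acot1 (14.6 to 24 CPM against 31.0 to 78.9 CPM, log2 change -1.56, SE 0.22, adjusted p 0.000746) and Acot4 (-1.0, SE 0.22, adjusted p 0.0145, and 0.104 in a fit of all 36 wild-type total libraries).

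In xenobiotic metabolism 4 of 28 genes fell and 0 rose (edgeR; 3.1% and 2.53% of all genes; 3 without ZT18 replicate 2), headed by Fmo5, a flavin monooxygenase, from 263 to 598 CPM at ZT06 (median 413) and from 840 to 1046 CPM at ZT18 (median 928), a log2 change of -1.25 (SE 0.17, adjusted p 0.000504). The others were the carboxylesterase Ces1d (-1.18), the nuclear receptor Nr1i3 (CAR, -0.64) and the glutathione transferase Gsta3 (-0.57). In the urea cycle and amino acid breakdown 5 of 25 fell and 1 rose (3.1% and 2.53% of all genes; 3 and 1 without ZT18 replicate 2). Asl, argininosuccinate lyase, ran from 54.1 to 86.2 CPM (median 65.1) against 101 to 304 CPM (median 181), a log2 change of -1.55 (SE 0.23, adjusted p 0.00115), and Hal, histidine ammonia-lyase, was the 1 that rose (181 to 233 CPM against 121 to 163 CPM, log2 change 0.46, SE 0.11, adjusted p 0.0174, and 0.154 in the fit of 36 libraries). Fmo5, Asl and Hal did not overlap between the times. The other 4 that fell were the aminotransferases Gpt2 (-0.79) and Gpt (-0.51), proline dehydrogenase Prodh (-0.61) and Aass of lysine breakdown (-0.46).

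Glucocorticoid-responsive genes fell in 4 of 17 cases, with 0 higher and a median log2 change of -0.68 (edgeR; 3.1% and 2.53% of all genes; 3 lower without ZT18 replicate 2). Tsc22d3 (GILZ), a target of the glucocorticoid receptor, ran from 23.7 to 29.5 CPM at ZT06 (median 24.9) and from 73.9 to 144 CPM at ZT18 (median 97.9), a log2 change of -2.06 (SE 0.17, adjusted p 2.42e-06). Fkbp5, a co-chaperone of that receptor, ran from 3.74 to 14 CPM (median 8.52) against 18.6 to 82.6 CPM (median 24.6), a log2 change of -2.23 (SE 0.49, adjusted p 0.0231, and 0.0538 and 0.0521 without ZT06 replicate 1 or 2, and 0.0514 with no filter). Cdkn1a (p21), a cell cycle inhibitor, ran from 3.48 to 10.5 CPM (median 5.24) against 12.9 to 68.3 CPM (median 28.2), a log2 change of -2.72 (SE 0.46, adjusted p 0.00605). The groups did not overlap in these 3, and the fourth gene, the phosphatase Dusp1, had a log2 change of -1.24. The list's median depended on the replicate set: it was -0.12 in numbers 1 to 3 and -1.26 in numbers 4 to 6.

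Immediate early genes, which answer within minutes to signals, were higher at ZT06 in 3 of 10 cases, with 0 lower and a median of 0.42 (edgeR; 2.53% and 3.1% of all genes; 2 higher without ZT18 replicate 2). Junb, an AP-1 subunit, ran from 14.4 to 32.5 CPM at ZT06 (median 20.3) and from 3.14 to 9.80 CPM at ZT18 (median 6.03), a log2 change of 1.61 (SE 0.23, adjusted p 0.000564). Klf6, a zinc finger factor, had a log2 change of 0.89 (SE 0.21, adjusted p 0.0214, and 0.054 without ZT18 replicate 2), and Gadd45a, a stress sensor, had one of 1.13. Egr1 had a larger point estimate, 2.39, with an SE of 0.87 and an adjusted p of 0.149, and its range of 3.82 to 61.4 CPM at ZT06 met the range of 0.835 to 15.1 CPM at ZT18.

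Autophagy genes showed 2 higher and 1 lower of 28 (2.53% and 3.1% of all genes), and 1 and 1 without ZT18 replicate 2, with a median of -0.02, against -0.02 over all genes. Gabarapl1, a member of the ATG8 family that coats autophagosomes, ran from 218 to 372 CPM at ZT06 (median 268) and from 111 to 217 CPM at ZT18 (median 125), a log2 change of 0.95 (SE 0.19, adjusted p 0.00838 by edgeR). Bnip3, a receptor for the removal of mitochondria, ran from 111 to 154 CPM (median 123) against 168 to 237 CPM (median 190), a log2 change of -0.72 (SE 0.11, adjusted p 0.00137). Neither overlapped, although the highest ZT18 library of Gabarapl1 came close to the lowest ZT06 library. Atg14, which starts autophagosomes, had a log2 change of 0.66.

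The machinery that cuts and polyadenylates RNA showed no call. Of 25 cleavage and polyadenylation factors, 0 passed edgeR's quasi-likelihood test (1 at unadjusted p under 0.05, 0 by DESeq2), against 5.64% of all genes. In a list this short, 0 is near that share. The log2 changes of the 25 ran from -0.50 to 0.37, with a median of -0.14. Cpsf6, a subunit of cleavage factor I that favours distal sites, ran from 16.1 to 20.6 CPM at ZT06 and from 18.8 to 22.1 CPM at ZT18 (log2 change -0.22, SE 0.11, adjusted p 0.265). Wdr33, which binds the AAUAAA signal, ran from 13.8 to 16.3 CPM against 10.8 to 12.9 CPM, with no overlap in plain CPM but a log2 change of 0.21 (SE 0.11, adjusted p 0.306). Of 17 splicing regulators of the SR and CLK families 0 passed (5 at unadjusted p under 0.05, 4 by DESeq2), and of 9 mitochondrially encoded RNAs 0 passed (3 and 2). Both counts also stand against 5.64% of all genes.

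**Figure D3:**
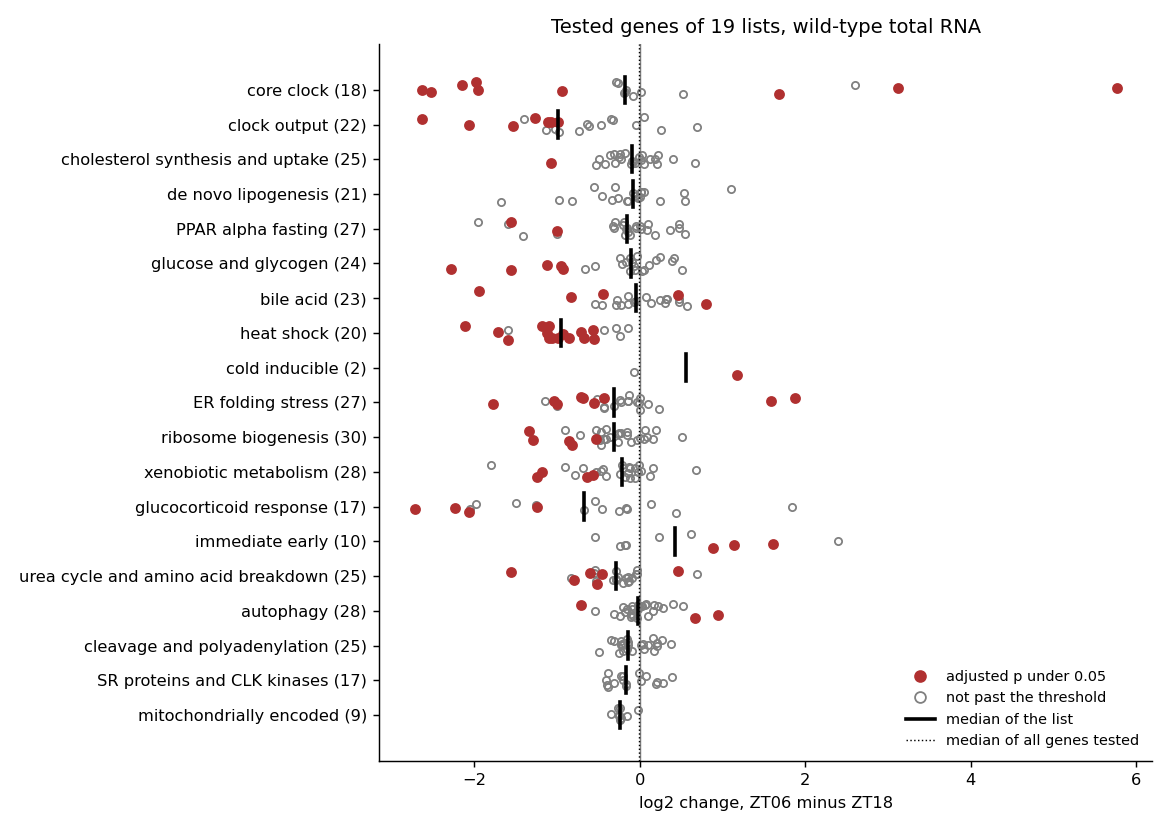
Log2 change (ZT06 minus ZT18, horizontal axis) of every tested member of the 19 gene lists (rows), with members past the test set off by colour. All heat shock members and the called clock output members lie to the left of 0, core clock members lie on both sides up to 5.77, and members of cleavage and polyadenylation lie within -0.50 to 0.37.

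The same ZT06 to ZT18 contrast was then set beside total RNA from mice labelled Bmal1-/-. Arntl, the BMAL1 gene, was counted in those libraries at a mean of 11.2 CPM at ZT06 and 13.1 CPM at ZT18, above the wild-type means of 1.76 and 9.65. The labels do not say which part of the gene was altered, and a 3′ tag can come from a transcript that still has its end, so these counts check nothing about the label and the samples are called the libraries labelled Bmal1-/-. Their gene counts ran from 5689420 to 11167633.

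In the libraries labelled Bmal1-/-, 1 of 11975 genes (0.00835%) passed the test between ZT06 and ZT18 in a fit of 24 libraries, with 635 at unadjusted p under 0.05. It was Gm11942, with means of 562 CPM (SD 497) at ZT06 and 20.04 CPM (SD 3.94) at ZT18 there (log2 change 4.83, adjusted p 0.0142). Its ZT06 libraries thus differed widely among themselves. Of the 299 genes higher at ZT06 in wild type, 296 could be tested there and 0 passed, with a median log2 change of 0.07 against 0.77 in wild type. Of the 366 lower genes, 364 could be tested, 0 passed, and the median was -0.08 against -0.77. Since the genes were chosen for their wild-type change, a smaller median elsewhere is partly fixed by the choice. The difference between genotypes was therefore tested itself, over all genes: 41 of 11975 (0.342%) changed differently over the 2 times by edgeR's quasi-likelihood test for the interaction.

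Clock genes were among them. Nr1d1 had a log2 change of -0.29 (SE 0.50) in the libraries labelled Bmal1-/-, and its interaction with genotype was 6.07 on the log2 scale. Dbp had 0.29 (SE 0.38) there with an interaction of 2.84, and Nr1d2 had -0.36 (SE 0.33) with an interaction of 2.05. Of the lower genes, Arntl had -0.18 and Cry1 -0.35 there, with interactions of -2.34 and -2.28. Interactions of genes outside the clock list were -2.68 for Ppp1r3b, -2.78 for Cdkn1a, -2.26 for Tsc22d3, 2.00 for Junb, 2.34 for Fbxo21 and 1.57 for Gpcpd1. In all of these the adjusted p of the interaction was under 0.05. The levels behind them differed in kind. In the libraries labelled Bmal1-/-, means at ZT06 and ZT18 were low for Nr1d1 (0.664 and 0.847 CPM, against 41.3 and 0.718 in wild type). Dbp was also low there (2.89 and 2.42 CPM). Cry1 was at 49.7 and 65.7 CPM there, against 5.66 and 33.1 in wild type. Cdkn1a was at 205 and 203 CPM, against 5.62 and 34.9.

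In the libraries labelled Bmal1-/- the median log2 change of the 20 heat shock genes was -0.09, and 3 of the 20 had an interaction past the threshold (against 0.342% of all genes). These were Hsph1 (-0.38 there, interaction -1.73), Hsp90aa1 (-0.23 there) and Chordc1 (0.04 there, interaction -1.13). For Hspa8, with -0.81 there, the interaction had an adjusted p of 0.846. Several genes with large changes in wild type kept sizeable point estimates in the libraries labelled Bmal1-/-: Eif4ebp3 was at -1.88, Fmo2 at -1.90, Acot1 at -1.79 and Fkbp5 at -1.37, with interaction adjusted p from 0.765 to 0.961.

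Nuclear RNA and polysomal RNA from wild-type liver, which are other libraries of the same design, were set beside total RNA in the same way. In nuclear RNA 337 of 11708 genes (2.88%) passed between ZT06 and ZT18, and in polysomal RNA 1058 of 11425 (9.26%), in fits of 24 libraries each. In the same fits total RNA gave 268 (2.29%) and 183 (1.6%), fewer than in its own fit of 12 libraries, so these counts are not set against the 665. Of the genes higher at ZT06 in total RNA, 286 were tested in nuclear RNA with a median log2 change of 0.60, and 291 in polysomal RNA with a median of 0.74. The lower genes had medians of -0.64 (361 genes) in nuclear and -0.64 (357 genes) in polysomal RNA. A difference between RNA kinds in the size of the change passed for 0 genes in either fit (304 and 838 at unadjusted p under 0.05; 0 and 0 also with RLE size factors), which does not show that the changes were alike. Nuclear libraries held fewer gene counts, from 1662449 to 5032306. In heat shock genes 9 of 20 fell in nuclear RNA and 5 of 20 in polysomal RNA, with medians of -0.84 and -0.58. Among all genes, 197 of 11708 fell in nuclear RNA and 542 of 11425 in polysomal RNA. These heat shock counts come from the fits of 24 libraries and are not set against that of the fit of 12.

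**Figure D4:**
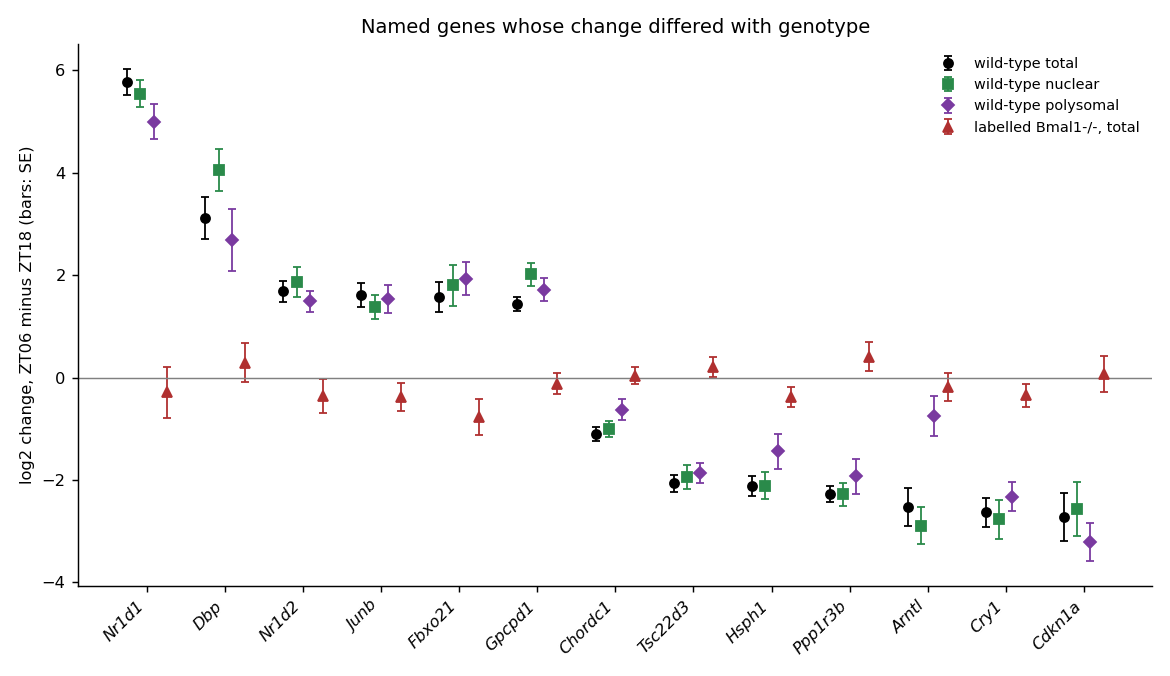
Log2 change (ZT06 minus ZT18) with its SE for 13 named genes whose change differed between genotypes, in wild-type total, nuclear and polysomal RNA and in total RNA labelled Bmal1-/-. The 3 wild-type points of a gene lie on one side of 0 and the point labelled Bmal1-/- lies nearer 0, as for Nr1d1 with -0.29 there.

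At the level of single polyadenylation sites, 419 of 19051 sites (2.2%) differed between ZT06 and ZT18 by edgeR's quasi-likelihood test, 181 (0.95%) higher and 238 (1.25%) lower at ZT06, and 252 without ZT18 replicate 2 and 272 without ZT06 replicate 4. Of these, 384 could be given to 293 genes, and 349 (90.9%) lay in genes that had passed on gene counts. Of 190 genes with a called site and at least 2 sites tested, 31 had every tested site called and 127 had 1 site called. In 0 genes were sites called in opposite directions.

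Nr1d1 shows how the sites follow the gene. Its site at chr11:98767928-98767975 (minus strand, at the annotated gene end) had a mean of 26.5 CPM at ZT06 and 0.571 CPM at ZT18, a log2 change of 5.48 (SE 0.31, adjusted p 4.49e-08). The site at chr11:98768119-98768156, upstream in the same strand, had 8.03 and 0.0842 CPM, a log2 change of 6.23 (SE 0.40, adjusted p 1.58e-07). Thra, a thyroid hormone receptor gene, overlaps Nr1d1 on the other strand, and its site at chr11:98768880-98769008 had 16.2 and 11.1 CPM, a log2 change of 0.48 with an adjusted p of 0.136. The site table gives the strands apart, so these values of Nr1d1 and Thra are separate. All 4 tested sites of Dbp passed, with log2 changes from 2.85 to 3.71, and both sites of Nr1d2 did, at 1.70 and 1.73.

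Few differences in site usage between the middle of the light and the middle of the dark phase passed the test. Usage, the share of a site in its gene's site counts in percent, was tested at 12720 sites of 4112 genes, and 3 sites (0.0236%) in 2 genes passed the adjusted threshold (534 at unadjusted p under 0.05; 0 by edgeR's diffSpliceDGE). 0 sites passed without any 1 of 8 libraries (ZT06 replicates 4, 5 and 6 and ZT18 replicates 2 to 6; 420 to 745 at unadjusted p under 0.05), and 1 or 2 without any 1 of the other 4. A p that misses the threshold does not show equal usage. The median absolute difference over all sites was 1.71 percentage points, and 95% of sites differed by less than 6.78 points.

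The 2 genes were Slc38a4 and Mlxipl, and in both the most 3′ site was used more at ZT06. For Slc38a4, a transporter of neutral amino acids, the last site (chr15:96994809-96995010, minus strand) held 30.7 to 37.7% of counts at ZT06 (mean 34.0% ± 3.18, SD, n = 6) and 19.7 to 24.99% at ZT18 (mean 23.1% ± 2.31, SD, n = 6). The difference was 10.8 points (adjusted p 0.0312, edgeR's quasi-likelihood test), and the groups did not overlap. The site upstream of it (chr15:96996747-96997035) fell from 76.5% at ZT18 to 65.5% at ZT06 (adjusted p 0.0363), which is the complement of the same shift. The gene's own level did not pass: its log2 change was -0.02 with an adjusted p of 0.917.

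For Mlxipl, which encodes the glucose-sensing factor ChREBP, the last of 5 sites (chr5:135139613-135139774, plus strand) held 25.9 to 32.3% at ZT06 (mean 28.6% ± 2.81, SD, n = 6) and 16.4 to 21.6% at ZT18 (mean 18.9% ± 1.99, SD, n = 6), a difference of 9.67 points (adjusted p 0.0312, edgeR). The groups did not overlap. The gene's level ran from 61.7 to 130 CPM and from 79.7 to 147 CPM (log2 change -0.34, SE 0.16, adjusted p 0.251). Over the 6 times of wild-type total RNA the share of the last site was highest at ZT10 for Slc38a4 (37.4% ± 6.89) and at ZT6 for Mlxipl, and in both genes the lowest mean was at ZT18. The calls depended on the settings: of 18 alternatives, the adjusted p stayed under 0.05 in 7 for the last site of Slc38a4, in 1 for its upstream site and in 5 for Mlxipl, with the same sign in all 18.

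The same last sites were then measured in other libraries, with exact two-sided permutation tests adjusted over 9 tests, a step chosen after the values were seen. In polysomal RNA the share was 43.8% at ZT06 and 32.5% at ZT18 for Slc38a4 (adjusted exact permutation p 0.0195) and 32.7% and 21.2% for Mlxipl (adjusted exact permutation p 0.0195). In nuclear RNA it was 26.8% and 15.7% for Slc38a4 (adjusted p 0.0623) and 13.6% and 13.2% for Mlxipl (adjusted p 0.779), by the same permutation test. In the libraries labelled Bmal1-/- it was 21.9% and 22.9% for Slc38a4 and 23.9% and 24.7% for Mlxipl (adjusted permutation p 0.779 each). Whether the shift differs between these series was not tested.

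**Figure D5:**
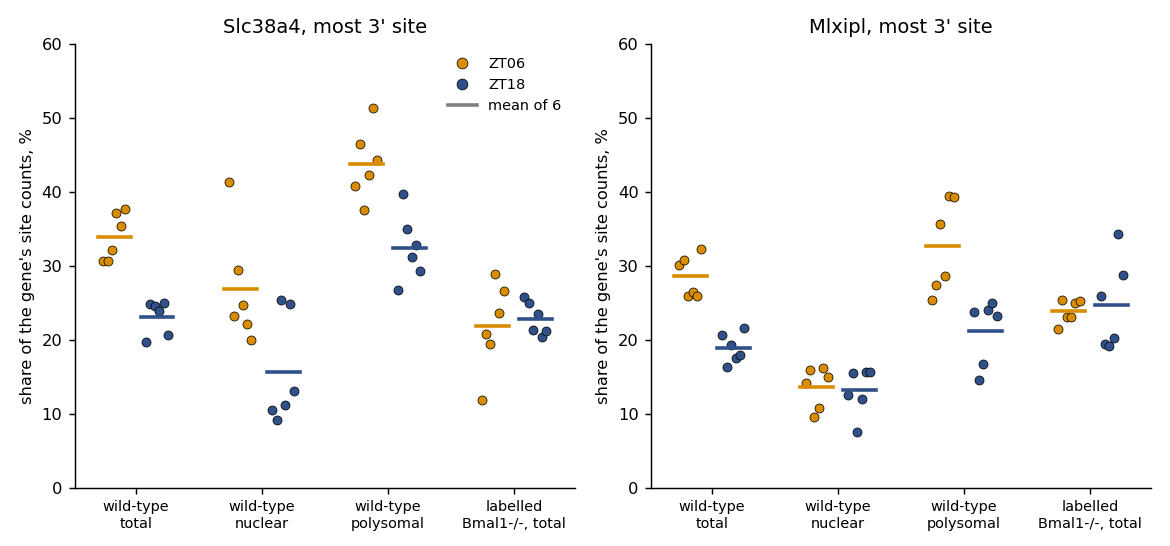
Share of the most 3′ site in percent of the gene's site counts, by library, for Slc38a4 and Mlxipl in wild-type total, nuclear and polysomal RNA and in total RNA labelled Bmal1-/-, at ZT06 and ZT18. In total RNA the ZT06 points (30.7 to 37.7% for Slc38a4) lie above the ZT18 points (19.7 to 24.99%), and in the series labelled Bmal1-/- the groups overlap.

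Averaged over 4112 genes, the share of the most 3′ site was 44.4% ± 2.08 (SD, n = 6) at ZT06 and 44.2% ± 1.29 at ZT18. The difference of 0.25 points was within the spread between libraries (exact two-sided permutation test, p = 0.818, with 0.00216 the smallest p that 6 against 6 libraries can give).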

How the data were processed

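Raw counts were deposited by the authors for gene symbols and for polyadenylation sites, in unpooled columns, 1 for each library. Site positions came from a deposited BED list. STAR 2.4.2a, edgeR, HOMER and the builds mm10 and GRCm38.p5 are named per the submitters' processing notes, with no role given; the counting tool, its strand setting and the filter are not given in the sources used here. Groups came from the sample titles, which matched the columns. From the counts, CPM (gene counts scaled to a library total of 1e6) was computed for levels, and edgeR 4.0.16 (R 4.3.3) was run with TMM factors, robust quasi-likelihood fits and Benjamini-Hochberg adjustment on features averaging 10 counts per library or more. A log2 change is ZT06 minus ZT18 with a prior count of 0.125, and its SE is its size over the root of F. Sites were given to genes by the RefSeq GRCm38.p6 table. Usage was fitted as a site's counts against its gene's site counts, for sites holding 5% or more, in genes averaging 50 counts or more. The gene, site and usage fits and the interactions with the other series were run on simulated data. The permutation tests, the replicate-set fits, DESeq2 and diffSpliceDGE were not.

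Named were all clock genes, the 10 largest rises and falls among called genes averaging 50 counts or more with no overlap, up to 4 members per list by adjusted p, and called sites in genes averaging 100 counts or more. Members of counts of 5 or fewer outside this rule were named after their values were seen. Some genes are not reported here. The members and lists were chosen with earlier results of these data known. Same-numbered libraries were not taken as pairs (correlations of deviations from -0.20 to 0.39, 5 of 6 above 0.1). Alternatives were RLE factors, DESeq2 1.42.0, no filter, a replicate block, each library left out, and, added after seeing the data, the replicate sets.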

Additional observations from a re-analysis of the deposited data

Results flagged for a closer look

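Among 199 groups of 6 libraries checked for a library that stands apart from the others of its group, 13 held one, and chance gives about 1 in 20. At ZT06 the highest library stood apart for Clock (45.2 CPM), Junb (32.5 CPM), Cdkn1a (10.5 CPM) and Egr1 (61.4 CPM), and the lowest for Acot4 (21.4 CPM), Gsta3 (926 CPM) and the splicing factor Srsf7 (10.8 CPM). At ZT18 the highest stood apart for Fmo2 (46.1 CPM), Egr1 (15.1 CPM), Jun (22.8 CPM), Bnip3 (237 CPM), Gabarapl1 (217 CPM) and the splicing kinase Srpk1 (20.1 CPM). These came from 9 different libraries, with ZT18 replicate 5 in 3 of them and ZT18 replicate 2 in 0.

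The change between ZT06 and ZT18 differed between wild-type liver and the libraries labelled Bmal1-/- in 41 genes of 11975 by edgeR's quasi-likelihood test of the interaction. Named genes among them, with the wild-type minus labelled Bmal1-/- difference in log2 change, were Nr1d1 (6.07), Dbp (2.84), Fbxo21 (2.34), Nr1d2 (2.05), Junb (2.00) and Gpcpd1 (1.57). With the opposite sign these were Cdkn1a (-2.78), Ppp1r3b (-2.68), Arntl (-2.34), Cry1 (-2.28), Tsc22d3 (-2.26), Hsph1 (-1.73) and Chordc1 (-1.13). The change of Per2 differed between replicate numbers 1 to 3 and 4 to 6 by 2.26 on the log2 scale.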

How the results depend on the processing

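The 665 genes and 419 sites that differed between ZT06 and ZT18 became 1004 and 724 with DESeq2 and 1036 and 696 with a replicate block. Numbers 1 to 3 alone gave 177 genes and 86 sites, and numbers 4 to 6 alone 238 and 160, with fewer libraries in each fit. Leaving out each library in turn gave 411 to 862 genes and 252 to 490 sites. The gene count moved by over 1.5 times without ZT18 replicate 2 (411), ZT18 replicate 6 (422) and ZT06 replicate 4 (435), and the site count without ZT18 replicate 2 (252) and ZT06 replicate 4 (272). RLE factors gave 669 genes, no filter 590 and the replicate set as a covariate 946. The 3 usage calls became 0 with diffSpliceDGE, 0 in each replicate set, 3 with the replicate block (2 of them the same sites) and 0 to 2 with a library left out. The 41 genes that changed differently by genotype were 8 in numbers 1 to 3, 30 in numbers 4 to 6 and 45 with the replicate block. The comparison of polysomal with total RNA gave 8 genes in numbers 4 to 6 against 0 in all libraries, where the cause was not tested. Of 65 named genes called, 34 remained in numbers 1 to 3, 38 in numbers 4 to 6, and 56 to 65 under each other alternative, with 0 reversed under any. Single libraries ended calls most often for Atg14, Wdr12, Nolc1 and Dusp1 (8 or 9 of 12), Baat (6) and Nr1i3 (5). The labels do not say what same-numbered libraries share, and 4 of 6 ZT06 libraries correlated best with their own number. The block ended the calls of Per2 (adjusted p 0.0536), Calcoco1 (0.0553), Noct (0.0505) and Akr1d1 (0.053); no filter those of Per2, Fkbp5, Fmo2, Nolc1 and Dusp1 (0.0514 to 0.109); and the fit of 36 libraries those of Acot4, Baat, Herpud1, Ces1d, Nr1i3, Dusp1 and Hal (0.0578 to 0.154). Depth limits genes near 10 counts per library, and nuclear RNA, with the lowest counts, limits the comparison with total RNA.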
